A study of Homo sapiens with 10 samples.

Results

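The comparison described here is that of MCF10A cells on gels of 6 kPa with the same cells on gels of 1 kPa. MCF10A is a non-tumorigenic human mammary epithelial line that carries basal and luminal features. The libraries were chosen by their labels, and 4 of the 10 libraries of the series enter the comparison. Cells were kept for 24 h at 5 mM glucose on 6 kPa (2 libraries) or on 1 kPa (2 libraries). The other libraries, from gels of 60 kPa and 400 Pa at 5 mM glucose and of 400 Pa at 25 mM glucose (2 libraries each), were used to estimate the spread between replicates and to place levels along the range of gels. All gels were polyacrylamide coated with fibronectin, and each library came from pooled gel cultures which the labels call biological replicates. All media held horse serum, EGF, insulin, hydrocortisone and cholera toxin. No recipe was found in the labels for the 1 kPa gel, while the other gels have one. In the header of the table, the deeper 1 kPa library is read from a directory whose name states no gel, and its group was taken from its column heading. The libraries carry no replicate number, so they are called the deeper and the shallower library of a group.

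Epithelial cells sense the stiffness of the material under them through integrins and the actomyosin cytoskeleton. In mammary cultures stiff substrates are known to favour spreading and division, while soft substrates favour quiescence and a more differentiated epithelium. Keratins of suprabasal layers, cornified envelope proteins, junctions and ion transporters mark differentiated epithelium, and cyclins, replication factors and spindle proteins mark dividing cells. KRT5 and KRT15 are keratins of basal cells.

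Between these gels, KRT15, KRT16, AQP3, SCNN1B, MUC1 and ALDH3A1 were among the genes that fell on 6 kPa, and genes of mitosis and DNA replication were higher in both 6 kPa libraries. The falls named here passed the test on the deposited values, where 22 genes fell and 3 rose. Rises of the mitosis and replication genes were mostly smaller than these falls. Rises of protein-coding genes passed the test only after a correction for GC content, as did most falls. After it 110 genes fell and 86 rose, and some of the further falls were small, such as that of TKT (-0.21 ± 0.04). Values are FPKM, reads scaled to exon length and to the library's mapped reads, and tests were made with limma on log2(FPKM + 1) with Benjamini-Hochberg adjustment over all genes tested. Log2 differences are 6 kPa minus 1 kPa with their standard error. In each pair of values of a group, the deeper library comes first.

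The libraries differed in depth and in base composition. The 6 kPa libraries held 4.97 and 2.98 M mapped reads, the 1 kPa libraries 11.3 and 5.75 M, and all 10 libraries 2.98 to 28.6 M. Each library's departure from the 10-library mean of a gene was set against transcript GC content, and the Spearman correlation across genes was 0.62 in the deeper and -0.31 in the shallower 6 kPa library, and 0.62 and 0.60 in the 1 kPa libraries. Genes are not independent replicates, and these values describe the libraries. Among the 1266 genes with the lowest GC content (median 37.4%) the median difference from 1 kPa was 0.01 in the deeper and 0.36 in the shallower 6 kPa library. Among the 1266 with the highest GC content (median 64.5%) it was 0.17 in the deeper and -0.37 in the shallower library. The 6 kPa libraries thus differed from each other along GC content, and their correlation with each other across genes was lower (Pearson r of 0.955) than that of the 1 kPa pair (0.980). Between the 1 kPa and 60 kPa libraries, the shallower 6 kPa library correlated more with 60 kPa (0.971 and 0.968) and the deeper one more with 1 kPa (0.977 and 0.972), while the deeper one's values with the 400 Pa libraries were 0.978 and 0.975. A smooth curve of GC content was therefore subtracted from each library, and results are given without and with this correction. A real change that follows GC content would be removed by it too.

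**Figure D1:**
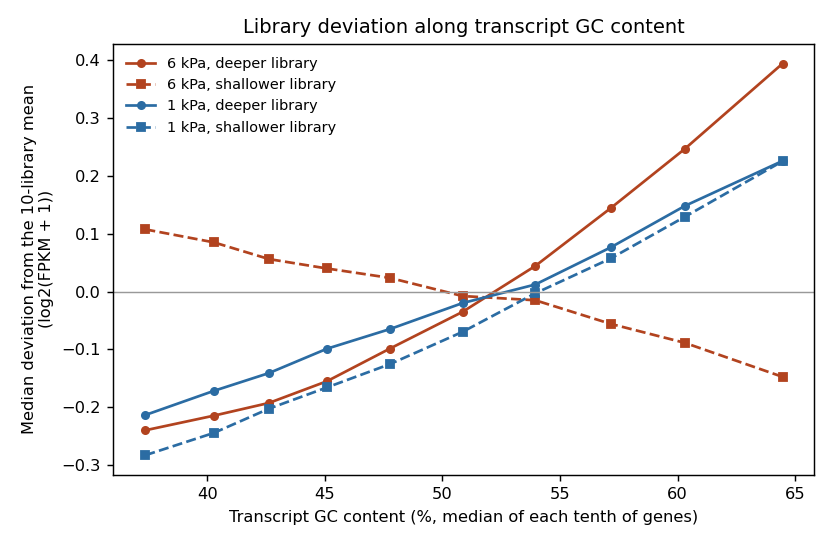
Median deviation of each library from the gene means over 10 libraries (vertical axis, log2(FPKM + 1)) in bins of 1266 genes ordered by transcript GC content (horizontal axis, %). The shallower 6 kPa library slopes down, while the deeper 6 kPa library and both 1 kPa libraries slope up.

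Epithelial markers were present on both gels. All 10 mammary epithelial markers were measured, with a summed level of 3416 and 2717 FPKM on 6 kPa and of 3115 and 3184 FPKM on 1 kPa. KRT5, a basal keratin, had 1694 and 1425 FPKM on 6 kPa, against 1511 and 1566 FPKM on 1 kPa. Of 6 endothelial markers 0 passed the expression filter, and VWF was at 0 in all 4 libraries. Of 9 fibroblast markers 3 passed it (summed level over the list 15.6 and 20.0 FPKM on 6 kPa, 19.9 and 21.3 FPKM on 1 kPa), and COL1A2, COL3A1, LUM and PDGFRA were at 0. The 3 were COL1A1, FAP and DCN. DCN had 10.9 and 12.1 FPKM on 6 kPa and 14.2 and 16.0 FPKM on 1 kPa. It fell after GC correction (-0.52 ± 0.10, adjusted p = 0.0470). FAP had 3.42 and 6.44 FPKM on 6 kPa and 4.515 and 3.66 FPKM on 1 kPa. Of 9 leukocyte markers 4 passed it (26.3 and 23.6 FPKM on 6 kPa, 28.3 and 26.3 FPKM on 1 kPa), and CD3E and TYROBP were at 0. The 4 were CD14, CD68, CSF1R and LAPTM5, with 0 called. CD68, the highest, had 13.2 and 9.68 FPKM on 6 kPa and 12.6 and 10.4 FPKM on 1 kPa. Noncoding RNAs listed as a sign of RNA quality summed to 501 and 707 FPKM on 6 kPa, against 705 and 706 FPKM on 1 kPa. The list holds MALAT1 and NEAT1, but also host genes of small nucleolar RNAs such as GAS5 and SNHG1. It therefore does not measure nuclear RNA alone. The sum was lowest in the deeper 6 kPa library, and the part of RNA quality in the results was not tested.

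Of 12820 genes tested, 22 fell (0.172%) and 3 rose (0.0234%) on 6 kPa at an adjusted p under 0.05. After GC correction 110 of 12652 genes fell (0.869%) and 86 rose (0.680%). The calls of both tests shared 22 falls and 2 rises. Of the 196 genes called after GC correction, 192 also had both 6 kPa libraries beyond both 1 kPa libraries, in the same direction, in the deposited values (109 falls and 83 rises). As background, both 6 kPa libraries lay above both 1 kPa libraries in 22.0% of all genes and below them in 13.9% (21.0% and 20.5% after GC correction). Counts of list members above, below or called, given further on, are to be read against these shares of all genes. The median difference over all genes was 0.04 before and 0.00 after GC correction. A gap between the groups of at least 1.5-fold on FPKM + 1, at a mean of at least 5 FPKM, was found downwards in 33 genes (0.436%) and upwards in 10 (0.132%), and 25 of the falls and 5 of the rises kept such a gap after GC correction (34 downwards or 0.451%, and 5 upwards or 0.0664%, in all).

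The number of calls rested on single libraries. It was 25 in all, 9 without the deeper and 8 without the shallower 1 kPa library, 1725 without the deeper and 40 without the shallower 6 kPa library. After GC correction the 196 calls became 58, 15, 639 and 157 in the same order. All 25 and all 196 genes kept their direction in each of these fits. Of the 25 calls, KRT15 alone passed without the deeper 1 kPa library, and KRT15, TSC22D3 and SNORA53 passed without the shallower one. Without the deeper 6 kPa library all 25 passed, and without the shallower one 12 did, among them KRT15, KRT16, SCNN1B, MUC1, ALDH3A1, TXNIP, TSC22D3, PDK4 and MAOA. Of the 196 calls after GC correction, 39, 12, 176 and 97 remained in the same order of libraries. With only these 4 libraries in the fit 0 genes were called, with 683 at an unadjusted p under 0.05.

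**Figure D2:**
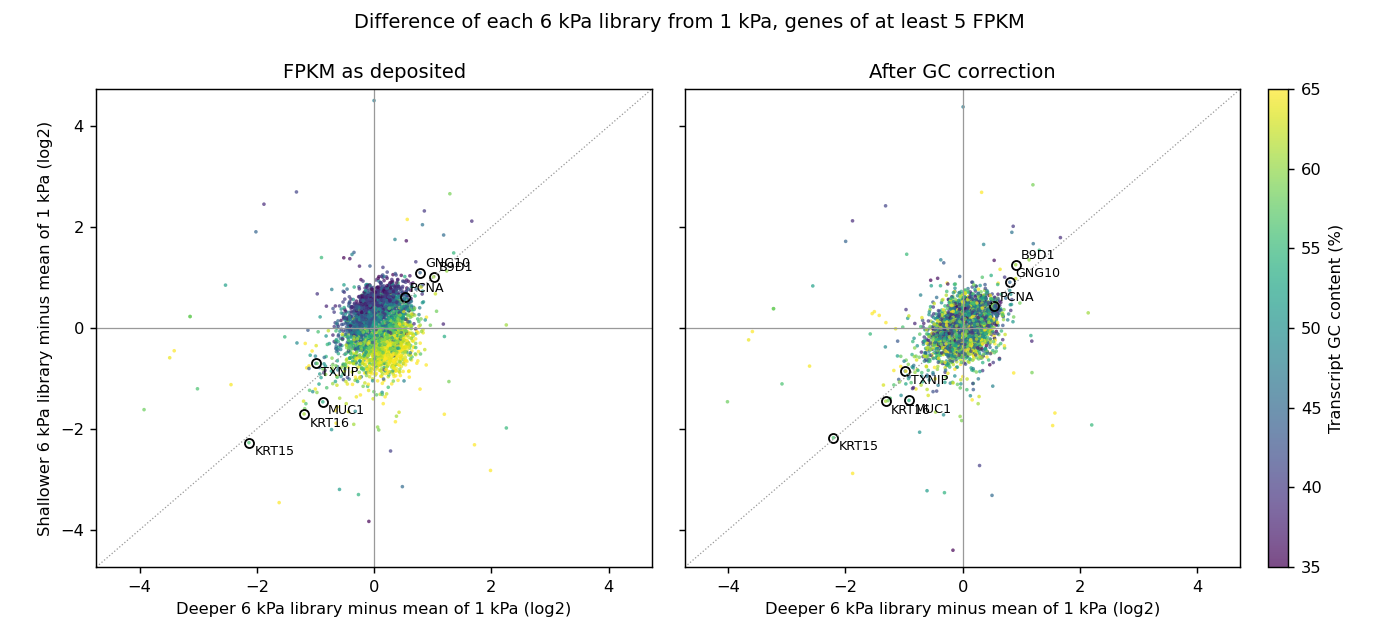
Difference of the deeper (horizontal axis) and of the shallower (vertical axis) 6 kPa library from the mean of the 1 kPa libraries, on log2(FPKM + 1), for genes averaging 5 FPKM or more, coloured by transcript GC content (%). As deposited, GC-rich and GC-poor genes separate along the vertical axis, while KRT15 and KRT16 are low and GNG10 and B9D1 are high in both libraries with or without the correction.

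KRT15 had the largest fall. It encodes a type I keratin of basal epithelial cells, and its transcript NM_002275 spans 39669997 to 39675270 of chromosome 17 (hg19, minus strand). Its level was 47.7 and 43.2 FPKM on 6 kPa (433 and 236 reads), against 212 and 213 FPKM on 1 kPa (4379 and 2245 reads). The groups did not overlap, and the libraries within each group lay close together. The log2 difference was -2.20 ± 0.11 (adjusted p = 8.38e-05) and -2.19 ± 0.06 after GC correction (adjusted p = 8.82e-07). KRT15 was called in 18 of 19 settings, and the setting without a call was the fit of the 4 libraries alone (adjusted p = 0.0738). KRT16, a keratin induced in stressed epidermis, had 29.5 and 20.4 FPKM on 6 kPa, against 67.1 and 70.4 FPKM on 1 kPa. It fell by 1.45 ± 0.16 (adjusted p = 0.0217), although near-identical keratin copies make its read assignment uncertain. In bulk libraries, fewer cells of a type and less RNA per cell cannot be told apart.

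Among the called falls were 4 genes of channels and of a pump regulator, AQP3, SCNN1B, FXYD3 and ORAI3, which were grouped here by their known roles and not tested as a group. AQP3, a channel for water and glycerol, had 8.22 and 6.30 FPKM on 6 kPa, against 20.0 and 19.3 FPKM on 1 kPa, a difference of -1.33 ± 0.18 (adjusted p = 0.0342). SCNN1B, the beta subunit of the epithelial sodium channel, had 11.1 and 8.05 FPKM on 6 kPa and 27.5 and 25.4 FPKM on 1 kPa (-1.39 ± 0.16, adjusted p = 0.0263). FXYD3, a regulator of the sodium pump, had 31.5 and 33.2 FPKM on 6 kPa and 56.9 and 56.5 FPKM on 1 kPa (-0.79 ± 0.11, adjusted p = 0.0386). In each of these genes both 6 kPa libraries lay below both 1 kPa libraries. ORAI3, a calcium channel subunit, fell by 0.87 ± 0.13 (adjusted p = 0.0402), with 3.50 and 3.22 FPKM on 6 kPa and 7.21 and 6.76 FPKM on 1 kPa.

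Several other called falls, also grouped here only by known roles, encode enzymes or metabolic proteins. ALDH3A1, an aldehyde dehydrogenase of surface epithelia, had 84.0 and 87.6 FPKM on 6 kPa, against 156 and 153 FPKM on 1 kPa (-0.84 ± 0.09, adjusted p = 0.0217). SELENBP1, a selenium-binding protein, had 7.91 and 7.12 FPKM on 6 kPa and 19.3 and 17.0 FPKM on 1 kPa (-1.17 ± 0.15, adjusted p = 0.0342). ETNK2, an ethanolamine kinase, had 7.99 and 6.29 FPKM on 6 kPa and 17.2 and 16.2 FPKM on 1 kPa (-1.13 ± 0.16, adjusted p = 0.0386). These genes did not overlap between the groups. MAOA, a monoamine oxidase, had 6.48 and 8.27 FPKM on 6 kPa and 16.2 and 14.2 FPKM on 1 kPa (-0.96 ± 0.13, adjusted p = 0.0342). PDK4, a kinase that inhibits pyruvate dehydrogenase, had 3.55 and 3.46 FPKM on 6 kPa and 7.73 and 6.79 FPKM on 1 kPa (-0.87 ± 0.12, adjusted p = 0.0342). GCHFR, which regulates GTP cyclohydrolase, was called only after GC correction (-1.01 ± 0.19, adjusted p = 0.0427) and rested on 14 and 7 reads on 6 kPa and 75 and 35 reads on 1 kPa.

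TXNIP and TSC22D3 fell as well. TXNIP, an arrestin-family inhibitor of glucose uptake, had 21.7 and 26.8 FPKM on 6 kPa, against 45.7 and 42.8 FPKM on 1 kPa. Its difference was -0.85 ± 0.11 (adjusted p = 0.0342), and -0.92 ± 0.06 after GC correction. TSC22D3, known as the glucocorticoid-induced leucine zipper, had 28.6 and 28.9 FPKM on 6 kPa and 59.8 and 50.9 FPKM on 1 kPa (-0.92 ± 0.10, adjusted p = 0.0217). Both gels received medium with hydrocortisone at the same glucose. Of the 8 measured MondoA targets and arrestins, TXNIP was the 1 that passed the test, and the list's median was -0.14, with 3 members below and 1 above both 1 kPa libraries.

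The remaining falls had various roles. MUC1, a mucin of the luminal surface, had 55.9 and 36.8 FPKM on 6 kPa, against 102 and 105 FPKM on 1 kPa (-1.17 ± 0.16, adjusted p = 0.0384). SPRR1B, a cornified envelope precursor, had 6.88 and 6.00 FPKM on 6 kPa and 15.0 and 13.3 FPKM on 1 kPa, and passed only after GC correction (-1.04 ± 0.16, adjusted p = 0.0235). TJP3, a scaffold of tight junctions, fell by 1.40 ± 0.18, with 0.650 and 0.973 FPKM on 6 kPa and 3.68 and 3.87 FPKM on 1 kPa. FGFR3, a growth factor receptor, fell by 1.19 ± 0.18, RASA3, an inhibitor of Ras, by 0.77 ± 0.11, AHNAK2, a giant scaffold protein, by 0.70 ± 0.10 and KIAA1217 by 0.79 ± 0.11. IMMP2L, a subunit of a peptidase of the mitochondrial inner membrane, had 3.42 and 3.42 FPKM on 6 kPa, against 6.31 and 7.52 FPKM on 1 kPa (-0.84 ± 0.12). Adjusted p-values of these last 6 genes were 0.0342, 0.0478, 0.0478, 0.0454, 0.0375 and 0.0386.

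Of the 25 calls, 5 rested on fewer than 20 reads over the 4 libraries. These were the noncoding loci MIR423, MIR3184, LOC101929613, ARF4-AS1 and SNORA53, and all 3 called rises are among them. MIR423 had 3 and 1 reads on 6 kPa and 0 and 0 on 1 kPa, MIR3184 had 1 and 1 against 0 and 0, and LOC101929613 had 3 and 2 against 0 and 0. MIR423 and MIR3184 overlap on opposite strands of chromosome 17 (28444097 to 28444190 and 28444104 to 28444178, hg19), and the counting set no strand option, so they cannot be told apart. ARF4-AS1 had 0 and 0 reads on 6 kPa, against 8 and 5 on 1 kPa, and SNORA53 had 0 and 0 against 12 and 3. No fold is given at these counts. MIR3620, among the largest falls by the gap, had 1 and 0 reads on 6 kPa and 13 and 3 on 1 kPa. The other 20 calls were all falls.

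The largest rises by the gap between the groups were smaller, and 0 of 12 were called on the deposited values and 6 after GC correction. PRIM1, the primase subunit that starts new DNA strands, had 15.4 and 15.8 FPKM on 6 kPa, against 9.24 and 7.33 FPKM on 1 kPa. Its difference was 0.85 ± 0.13 (adjusted p = 0.0539), and 0.70 ± 0.12 after GC correction (adjusted p = 0.0351). FBXO5, an inhibitor of the anaphase-promoting complex, had 13.0 and 15.6 FPKM on 6 kPa and 8.08 and 8.01 FPKM on 1 kPa (0.58 ± 0.08 after GC correction, adjusted p = 0.0161). KIF2C, a kinesin that depolymerises spindle microtubules, had 36.0 and 36.3 FPKM on 6 kPa and 24.2 and 24.0 FPKM on 1 kPa (0.54 ± 0.07 after GC correction, adjusted p = 0.0106). In each of these genes the groups were apart by more than the libraries within a group. TPRKB, of a complex that modifies transfer RNA, rose after GC correction by 0.58 ± 0.11, with 29.5 and 34.8 FPKM on 6 kPa and 17.8 and 18.7 FPKM on 1 kPa. B9D1, a protein of the ciliary transition zone, had 7.37 and 7.36 FPKM on 6 kPa and 3.50 and 2.80 FPKM on 1 kPa (1.08 ± 0.19 after GC correction), and GNG10, a G protein subunit whose reads may be shared with an overlapping readthrough locus, had 6.28 and 8.05 FPKM on 6 kPa and 3.26 and 3.20 FPKM on 1 kPa (0.86 ± 0.17 after GC correction). B9D1 rested on 25 and 15 reads on 6 kPa and 27 and 11 on 1 kPa.

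Not called in either test were DCK, PRIMPOL and the noncoding loci among these 12. DCK, a kinase of the deoxynucleoside salvage pathway, had 11.2 and 10.1 FPKM on 6 kPa and 6.34 and 5.56 FPKM on 1 kPa (adjusted p = 0.0957 before and 0.133 after GC correction). PRIMPOL, a primase that restarts stalled forks, had 7.64 and 7.53 FPKM on 6 kPa and 4.73 and 4.77 FPKM on 1 kPa. Of MIR198, MIR614, SGO1-AS1 and RAET1E-AS1, none was called, and their reads cannot be told from those of genes they overlap. For the antisense loci SGO1-AS1 and RAET1E-AS1 this is because the counting set no strand option. SGO1-AS1, opposite the centromere guardian SGO1, had 6.10 and 15.6 FPKM on 6 kPa, against 3.22 and 2.81 FPKM on 1 kPa.

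**Figure D3:**
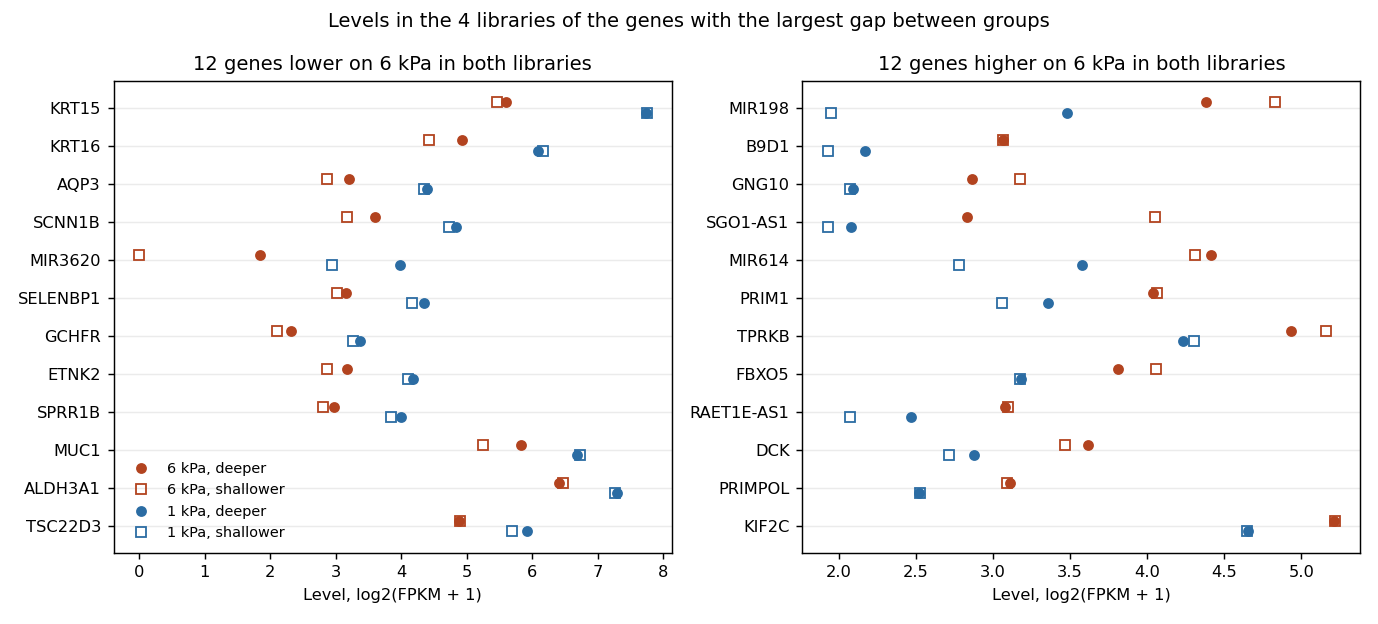
Level of the 12 genes with the largest downward gap (left) and of the 12 with the largest upward gap (right), log2(FPKM + 1) on the horizontal axis, with the 6 kPa libraries above the 1 kPa libraries in each row. Genes were chosen by this gap, so the separation of the groups is a description; KRT15 stands apart at 47.7 and 43.2 FPKM on 6 kPa against 212 and 213 FPKM on 1 kPa.

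Mitotic genes were higher on 6 kPa nearly throughout. Of 25 genes of the G2 and M phases, 24 lay above both 1 kPa libraries in both 6 kPa libraries and 0 lay below, against 22.0% and 13.9% of all genes. The median difference was 0.29 in the deeper and 0.54 in the shallower 6 kPa library, and 0.30 and 0.37 after GC correction. On the deposited values 0 of the 25 were called. After GC correction 10 rose and 0 fell, against 0.680% and 0.869% of all genes. The 10 were CCNB1, CCNB2, CDC20, CDK1, KIF20A, PLK1, TOP2A, TPX2, TTK and UBE2C. This count was 2 without the deeper and 0 without the shallower 1 kPa library, 14 without the deeper and 5 without the shallower 6 kPa library.

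CCNB1, the mitotic cyclin, had 125 and 141 FPKM on 6 kPa, against 90.8 and 94.1 FPKM on 1 kPa. Its difference was 0.52 ± 0.09 (adjusted p = 0.0769), and 0.42 ± 0.06 after GC correction (adjusted p = 0.0153). CDK1, its kinase partner, had 50.7 and 76.3 FPKM on 6 kPa and 40.0 and 33.2 FPKM on 1 kPa (0.55 ± 0.09 after GC correction, adjusted p = 0.0292). The difference of CDK1 was larger in the shallower 6 kPa library. KIF20A, a kinesin of cytokinesis, had 46.5 and 48.1 FPKM on 6 kPa and 34.999 and 34.1 FPKM on 1 kPa (0.39 ± 0.06 after GC correction, adjusted p = 0.0240). UBE2C, the ubiquitin-conjugating enzyme of the anaphase-promoting complex, had 120 and 121 FPKM on 6 kPa and 90.9 and 75.6 FPKM on 1 kPa (0.51 ± 0.07 after GC correction, adjusted p = 0.0143). CCNA2, the cyclin of S and G2 phases, had 45.7 and 48.8 FPKM on 6 kPa and 30.6 and 34.6 FPKM on 1 kPa, and was not called (adjusted p = 0.0855 after GC correction). MKI67, a marker of cycling cells, had 41.0 and 49.1 FPKM on 6 kPa and 36.9 and 36.5 FPKM on 1 kPa (adjusted p = 0.147 after GC correction).

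Replication genes followed the same pattern with a smaller count. Of 22 genes of S phase, 15 lay above both 1 kPa libraries and 0 below, against 22.0% and 13.9% of all genes. Their median difference was 0.32 in the deeper and 0.33 in the shallower 6 kPa library. On the deposited values 0 were called, and after GC correction MCM3, MCM7, PCNA, RRM2 and TYMS rose (0.680% of all genes did). That count of 5 was 1 without the deeper and 0 without the shallower 1 kPa library, 5 without the deeper and 2 without the shallower 6 kPa library. PCNA, the sliding clamp of DNA polymerase, had 117 and 124 FPKM on 6 kPa, against 82.7 and 79.5 FPKM on 1 kPa (0.49 ± 0.05 after GC correction, adjusted p = 0.00760). TYMS, which makes thymidylate, had 57.8 and 73.9 FPKM on 6 kPa and 46.3 and 39.3 FPKM on 1 kPa. RRM2, a subunit of ribonucleotide reductase, had 79.3 and 96.9 FPKM on 6 kPa and 64.0 and 62.3 FPKM on 1 kPa, and MCM3, of the replicative helicase, had 49.3 and 49.0 FPKM on 6 kPa and 38.7 and 33.6 FPKM on 1 kPa. Tubulins, from which spindles are built, were also among the calls after GC correction: TUBB had 541 and 513 FPKM on 6 kPa and 391 and 375 FPKM on 1 kPa (0.45 ± 0.04, adjusted p = 0.00301). TUBB was singled out after its values were seen and has near-identical copies.

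Condensin and cohesin genes showed 8 of 17 above both 1 kPa libraries and 0 below (22.0% and 13.9% of all genes), and 0 called. NCAPG, a condensin subunit, had 20.0 and 25.4 FPKM on 6 kPa, against 16.5 and 12.6 FPKM on 1 kPa (adjusted p = 0.0679 after GC correction). Their median difference was 0.04 in the deeper and 0.39 in the shallower 6 kPa library, and 0.05 and 0.17 after GC correction. G1 cyclins and CDK inhibitors were mixed, with 4 of 12 above, 2 below and 0 called. Replication-dependent histones had 6 of 7 below and 1 above both 1 kPa libraries and 0 called. HIST1H1C, a linker histone, had 7.46 and 10.1 FPKM on 6 kPa and 12.4 and 12.2 FPKM on 1 kPa.

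Promoters of the mitotic genes are shown because these genes moved together. The motif of each list was chosen as one known for that list, and was counted in members whether or not they moved. The shares therefore describe the lists and not the difference between the gels. Many mitotic promoters hold CCAAT boxes, bound by NF-Y, and the cell cycle homology element TTTGAA. Of 20 list members with a promoter in the RefSeq table (build GRCh38.p14, 250 bases before to 50 after the start), 18 held CCAAT (90.0%) on either strand, against 35.7% of 27305 promoters. TTTGAA was held by 14 (70.0%), against 15.4% of all. A match is a description of the letters and not a binding site. The promoters of the 4 members with the largest gap that have an entry follow 5′ to 3′ on the strand of the gene, with matches in capitals; ATTGG is CCAAT on the other strand.
CCNB1 (chr5:69166900-69167199, plus strand): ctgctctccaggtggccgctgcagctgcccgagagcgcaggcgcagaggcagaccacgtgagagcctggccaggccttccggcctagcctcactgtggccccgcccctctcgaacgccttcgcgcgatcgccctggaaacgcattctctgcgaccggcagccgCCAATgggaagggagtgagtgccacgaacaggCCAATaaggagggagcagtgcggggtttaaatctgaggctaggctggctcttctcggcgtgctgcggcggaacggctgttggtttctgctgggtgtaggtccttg
KIF20A (chr5:138178862-138179161, plus strand): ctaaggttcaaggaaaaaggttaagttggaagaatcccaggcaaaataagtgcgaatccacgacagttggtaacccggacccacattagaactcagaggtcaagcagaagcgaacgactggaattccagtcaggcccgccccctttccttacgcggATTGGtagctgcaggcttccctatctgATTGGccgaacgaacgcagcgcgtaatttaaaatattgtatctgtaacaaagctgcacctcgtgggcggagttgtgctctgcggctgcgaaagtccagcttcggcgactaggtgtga
CCNA2 (chr4:121823834-121824133, minus strand): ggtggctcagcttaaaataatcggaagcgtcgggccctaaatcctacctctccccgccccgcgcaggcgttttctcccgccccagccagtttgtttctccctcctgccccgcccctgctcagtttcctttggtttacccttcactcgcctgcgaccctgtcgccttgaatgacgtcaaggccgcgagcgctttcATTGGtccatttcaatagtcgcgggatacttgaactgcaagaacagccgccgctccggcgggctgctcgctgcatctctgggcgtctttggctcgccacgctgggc
CDK1 (chr10:60778081-60778380, plus strand): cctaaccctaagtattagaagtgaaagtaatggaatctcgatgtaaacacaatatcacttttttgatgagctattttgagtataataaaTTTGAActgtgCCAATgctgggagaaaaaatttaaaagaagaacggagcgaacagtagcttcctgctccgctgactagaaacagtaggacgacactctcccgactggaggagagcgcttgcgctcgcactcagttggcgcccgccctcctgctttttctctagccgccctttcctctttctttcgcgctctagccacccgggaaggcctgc
All 4 hold CCAAT, and CDK1 also holds TTTGAA. Of 18 S phase members with a promoter, 4 held the E2F motif TTTCGCGC (22.2%) on either strand, against 0.546% of all promoters. Of PCNA, MCM3, TYMS and RRM2, the members with the largest gap, MCM3 held it, in capitals.
MCM3 (chr6:52284693-52284992, minus strand): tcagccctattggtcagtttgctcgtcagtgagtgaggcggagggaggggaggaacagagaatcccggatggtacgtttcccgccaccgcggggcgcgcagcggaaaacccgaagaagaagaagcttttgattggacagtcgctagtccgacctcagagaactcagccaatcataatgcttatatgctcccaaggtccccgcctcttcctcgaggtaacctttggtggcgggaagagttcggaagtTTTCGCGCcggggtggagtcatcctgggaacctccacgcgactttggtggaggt
Elsewhere, the TEAD motif GGAATG was held by 5 of 18 YAP and TEAD target promoters (27.8%, against 14.05% of all), TGACNNNGC by 4 of 17 NRF2 target promoters (23.5% against 13.6%), TGATGNAA by 6 of 20 ATF4 target promoters (30% against 3.67%) and the heat shock element by 4 of 18 chaperone promoters (22.2% against 0.487%).

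Many cornification and desmosome genes were lower in both 6 kPa libraries. Of 15 measured genes of cornification and of the S100 family, 9 lay below both 1 kPa libraries and 1 above, against 13.9% and 22.0% of all genes, and the median difference was -0.36 in the deeper and -0.53 in the shallower 6 kPa library. After GC correction SPRR1B fell and S100A2 rose, and 0 were called before it. S100A2, a calcium-binding protein of basal cells, had 2592 and 2438 FPKM on 6 kPa, against 2126 and 1980 FPKM on 1 kPa (0.29 ± 0.04 after GC correction, adjusted p = 0.0176). KRT10, the suprabasal keratin, had 10.97 and 16.5 FPKM on 6 kPa and 27.8 and 21.5 FPKM on 1 kPa and was not called (adjusted p = 0.152 before and 0.0629 after GC correction).

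Of 9 desmosome genes 5 lay below both 1 kPa libraries and 0 above, against 13.9% and 22.0% of all genes. After GC correction 8 lay below and 0 above, against 20.5% and 21.0%. DSG3, DSP and JUP fell after GC correction (0.869% of all genes did), and 0 were called before it. That count of 3 was 2 without the deeper and 0 without the shallower 1 kPa library, 5 without the deeper and 2 without the shallower 6 kPa library. DSG3, a desmosomal cadherin of basal layers, had 10.8 and 13.0 FPKM on 6 kPa, against 17.7 and 17.3 FPKM on 1 kPa (-0.64 ± 0.08 after GC correction, adjusted p = 0.00982). DSP, which links desmosomes to keratin, had 55.5 and 60.3 FPKM on 6 kPa and 74.3 and 74.6 FPKM on 1 kPa (-0.41 ± 0.05 after GC correction, adjusted p = 0.0123). JUP, plakoglobin, had 74.7 and 50.2 FPKM on 6 kPa and 82.3 and 85.3 FPKM on 1 kPa, so that its fall was deeper in the shallower library. Tight and adherens junction genes had 6 of 14 below and 1 above, with 0 called, and CDH1, E-cadherin, had 14.9 and 16.6 FPKM on 6 kPa and 18.0 and 17.4 FPKM on 1 kPa.

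Of 9 luminal markers 5 lay below and 1 above both 1 kPa libraries, against 13.9% and 22.0% of all genes. The 1 above was EPCAM, an epithelial adhesion molecule, which was not called. It had 11.7 and 13.2 FPKM on 6 kPa and 10.4 and 8.35 FPKM on 1 kPa. MUC1 was called on the deposited values, and after GC correction MUC1 and ELF3 fell and KRT7 rose. ELF3, an epithelial transcription factor, had 0.258 and 0.537 FPKM on 6 kPa and 2.01 and 2.00 FPKM on 1 kPa (4 and 5 reads, against 71 and 36). KRT7, a simple keratin, had 1708 and 1259 FPKM on 6 kPa and 1311 and 1349 FPKM on 1 kPa, and its groups overlapped before the correction. Of 12 basal and myoepithelial markers 3 lay above and 2 below both 1 kPa libraries, and the median was -0.00. KRT15 and KRT16 fell, and CAV1, the caveolar coat protein, rose after GC correction. KRT6A, a further keratin, also lay above both 1 kPa libraries and was not called. CAV1 had 205 and 249 FPKM on 6 kPa, against 179 and 170 FPKM on 1 kPa. Of 13 mesenchymal markers 1 was called after GC correction: VIM, vimentin, had 496 and 481 FPKM on 6 kPa and 414 and 399 FPKM on 1 kPa (0.26 ± 0.04, adjusted p = 0.0153).

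Few adhesion and mechanosensing genes passed the test. Among 25 YAP and TEAD targets 8 lay above and 2 below both 1 kPa libraries, and NT5E, an ecto-nucleotidase, was the 1 gene called, after GC correction, with 47.8 and 60.0 FPKM on 6 kPa and 37.5 and 36.1 FPKM on 1 kPa. CYR61 and CTGF, the secreted proteins most used as YAP readouts, were not called: CYR61 had 19.5 and 24.8 FPKM on 6 kPa and 21.8 and 20.5 FPKM on 1 kPa, and CTGF 12.6 and 12.6 FPKM on 6 kPa and 13.2 and 11.01 FPKM on 1 kPa. Both overlapped between the groups. ANKRD1, a further target, was below the expression filter. Of 11 integrin subunits 4 lay above and 0 below, and ITGB6, of the integrin that activates TGF-beta, rose after GC correction (0.42 ± 0.08, adjusted p = 0.0413). ITGB1, the common beta subunit, had 90.4 and 118 FPKM on 6 kPa and 90.7 and 85.5 FPKM on 1 kPa, and ITGB4, the hemidesmosome subunit, had 182 and 123 FPKM on 6 kPa and 173 and 169 FPKM on 1 kPa. Neither was called.

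SRF and MRTF targets had 4 of 20 above and 1 below both 1 kPa libraries, with 0 called. Focal adhesion components had 4 of 20 above and 2 below, and CAV1 was the 1 call after GC correction. DIAPH3, a formin of the actin cytoskeleton, had 13.3 and 12.7 FPKM on 6 kPa, against 9.82 and 9.29 FPKM on 1 kPa, and was not called. ACTB had 2971 and 2389 FPKM on 6 kPa and 2315 and 2352 FPKM on 1 kPa, and ACTA2 7.402 and 9.30 FPKM on 6 kPa and 8.16 and 7.95 FPKM on 1 kPa. Laminin and hemidesmosome genes had 1 of 12 above and 4 below with 0 called. Among 20 genes of fibronectin and the matrix 3 lay above and 6 below, and TIMP1, an inhibitor of metalloproteinases, rose after GC correction, with 836 and 659 FPKM on 6 kPa and 606 and 601 FPKM on 1 kPa. FN1, fibronectin, had 26.1 and 26.7 FPKM on 6 kPa and 26.1 and 25.6 FPKM on 1 kPa, which overlapped.

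Chaperones were higher more often than lower, with 0 called in either test. Of all genes 22.0% lay above and 13.9% below both 1 kPa libraries. All but 1 of 8 subunits of the TRiC chaperonin, which folds actin and tubulin, lay above both 1 kPa libraries (7 of 8). Their median difference was 0.14 in the deeper and 0.33 in the shallower 6 kPa library. Heat shock factor targets and cytosolic chaperones had 10 of 20 above and 1 below. HSPA8, the constitutive HSP70, had 710 and 810 FPKM on 6 kPa, against 659 and 640 FPKM on 1 kPa (adjusted p = 0.350 before and 0.0853 after GC correction). HSF1 itself had 59.1 and 45.3 FPKM on 6 kPa and 52.2 and 55.3 FPKM on 1 kPa. The unfolded protein response had 8 of 19 above and 2 below, with 0 called.

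Mitochondrial and metabolic lists held few calls. Of 37 complex I genes 13 lay above and 1 below, of 35 genes of complexes III to V 10 above and 0 below, and of 26 TCA cycle enzymes 10 above and 0 below, with 0 called in each. Of all genes 22.0% lay above and 13.9% below, and 10 of 35 above is near that share. Mitochondrial fission, fusion and cristae genes had 8 of 19 above and 2 below with 0 called. In the list of mitochondrial proteases and chaperones (5 of 19 above, 1 below) IMMP2L was the 1 call, and the protease YME1L1 had 29.5 and 35.9 FPKM on 6 kPa, against 29.4 and 26.6 FPKM on 1 kPa. Cytosolic ribosomal proteins had 6 of 45 above and 2 below with 0 called. Cholesterol synthesis had 11 of 22 above and 1 below, and FDPS and IDI1, enzymes of isoprenoid units, rose after GC correction. FDPS had 318 and 310 FPKM on 6 kPa, against 248 and 248 FPKM on 1 kPa (0.33 ± 0.04, adjusted p = 0.0142). Fatty acid synthesis had 5 of 14 above, 0 below and 0 called. In glycolysis and glucose uptake, with 7 of 21 above and 3 below, the glucose transporter SLC2A1 fell after GC correction, with 19.5 and 16.5 FPKM on 6 kPa and 24.3 and 25.2 FPKM on 1 kPa (-0.44 ± 0.08, adjusted p = 0.0398). It was also the 1 call among 15 hypoxia genes.

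Stress lists were mixed. NRF2 targets had 6 of 23 above and 5 below both 1 kPa libraries. After GC correction AKR1C1, AKR1C3 and TKT fell, a count that was 0 without either 1 kPa library, 4 without the deeper and 1 without the shallower 6 kPa library. AKR1C1 and AKR1C3 share near-identical sequence, which makes their read assignment uncertain. AKR1C1 had 49.2 and 62.7 FPKM on 6 kPa and 69.1 and 61.1 FPKM on 1 kPa. Its groups thus overlapped before the correction. AKR1C3 had 47.6 and 60.25 FPKM on 6 kPa and 64.3 and 61.0 FPKM on 1 kPa. TKT, transketolase of the pentose phosphate pathway, had 374 and 304 FPKM on 6 kPa, against 405 and 393 FPKM on 1 kPa (-0.21 ± 0.04, adjusted p = 0.0418), and was the 1 call among 15 pentose phosphate and serine pathway genes. FTH1, the ferritin heavy chain, had 1184 and 1078 FPKM on 6 kPa and 1354 and 1464 FPKM on 1 kPa and was not called (adjusted p = 0.0584 after GC correction). Of 23 superoxide, peroxide and glutathione enzymes 5 lay above and 5 below, and SOD2, the mitochondrial superoxide dismutase, fell after GC correction (-0.44 ± 0.08, adjusted p = 0.0401). SOD2 had 47.7 and 62.0 FPKM on 6 kPa and 73.2 and 69.9 FPKM on 1 kPa.

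Of 23 ATF4 targets and tRNA synthetases 2 lay above and 7 below, with 0 called. Among 17 NF-kB and cytokine genes 3 lay above and 6 below, and NFKBIA, the inhibitor of NF-kB, fell after GC correction, with 44.6 and 38.9 FPKM on 6 kPa and 60.6 and 56.6 FPKM on 1 kPa (-0.49 ± 0.07, adjusted p = 0.0199). Of 18 immediate early and AP-1 genes 6 lay above and 7 below, and FOSL2, an AP-1 subunit, fell after GC correction, with 15.5 and 13.5 FPKM on 6 kPa and 21.1 and 20.97 FPKM on 1 kPa. Lists of p53 targets (5 of 18 above, 2 below), interferon genes (3 of 13 above, 1 below) and EGF receptors and ligands (1 of 9 above, 0 below) had 0 called. Members called in either test were found in 21 of the 40 pathway lists, and 19 held none.

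**Figure D4:**
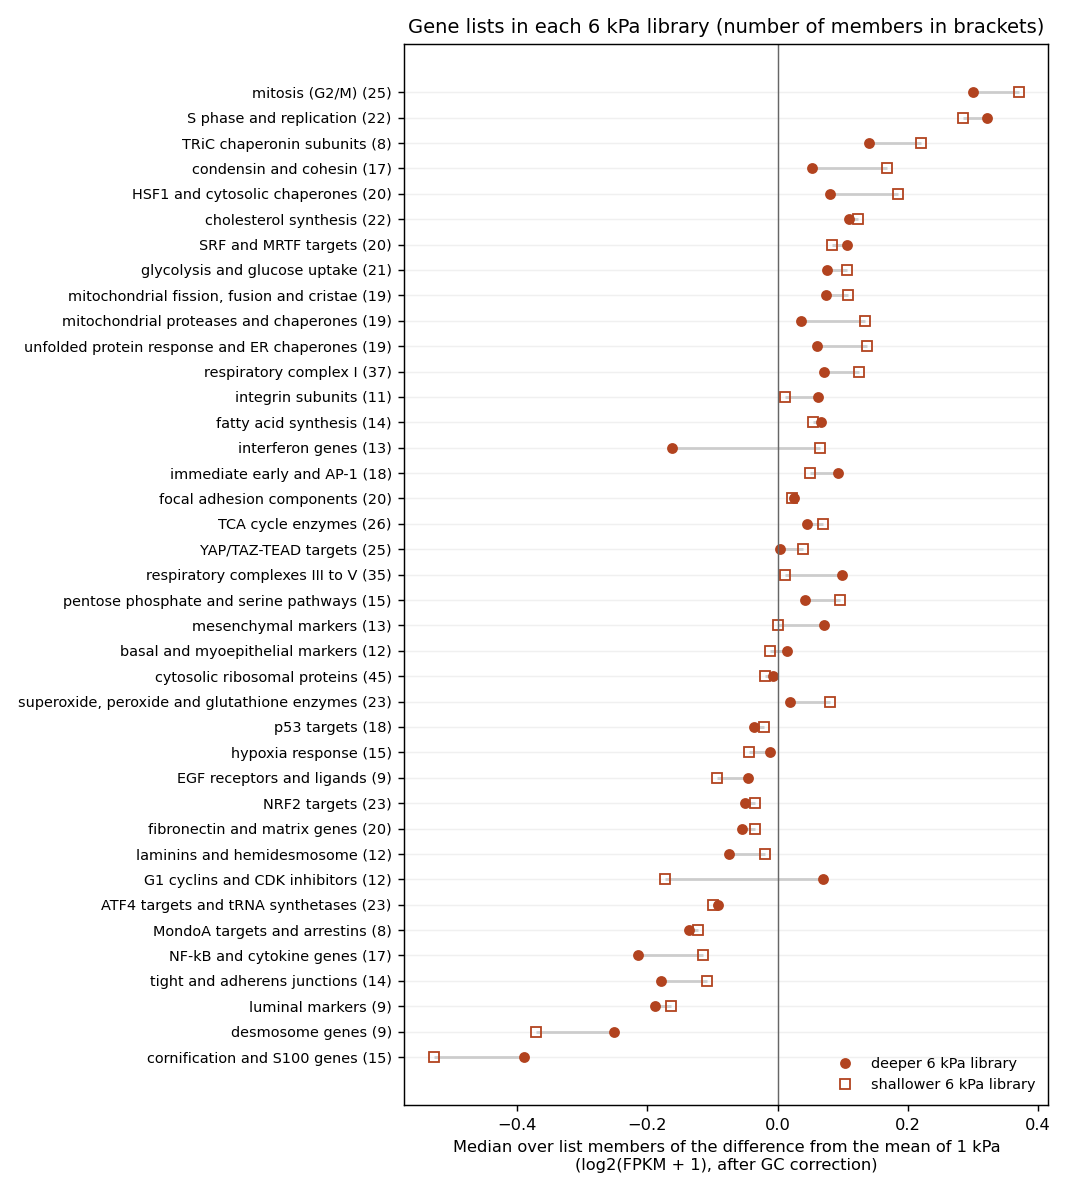
Median over the members of each pathway list shown of the difference from the mean of the 1 kPa libraries (horizontal axis, log2(FPKM + 1), after GC correction) for the deeper (filled) and the shallower (open) 6 kPa library, with the number of members in brackets. Mitosis and S phase lie furthest to the right, and cornification and desmosome genes furthest to the left, in both libraries.

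Several of the falls were placed along the whole range of gels at 5 mM glucose, low to high. These levels are deposited FPKM and were not corrected for GC content. The correlation of each library's departure with GC content was 0.61 and 0.66 on 400 Pa, and -0.57 and -0.60 on 60 kPa. The 60 kPa libraries thus differ from those of 400 Pa and 1 kPa along GC content. Its part in the levels along the gels was not tested. KRT15 had 193 and 209 FPKM on 400 Pa, 212 and 213 on 1 kPa, 47.7 and 43.2 on 6 kPa and 21.6 and 17.9 on 60 kPa. Its level on 400 Pa was close to that on 1 kPa, and the step to 6 kPa was the largest of the 3. ALDH3A1 had 207 and 222, 156 and 153, 84.0 and 87.6 and 51.9 and 45.8 FPKM in the same order, lower at each step. FXYD3 had 63.5 and 74.5, 56.9 and 56.5, 31.5 and 33.2 and 17.8 and 15.3 FPKM. The contrast of 60 kPa with 6 kPa uses the same 6 kPa libraries as the contrast described here, and in it KRT15 (adjusted p = 0.0102), ALDH3A1 (adjusted p = 0.0234), FXYD3 (adjusted p = 0.0234) and SPRR1B (adjusted p = 0.0410) were called. AQP3, SCNN1B and MUC1 were not called in that contrast, and KRT16 and TXNIP were called only after GC correction (adjusted p = 0.0481 and 0.0470).

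Other genes did not follow the order of stiffness. KIAA1217 had 15.3 and 16.8 FPKM on 400 Pa, 23.7 and 24.6 on 1 kPa, 14.5 and 12.7 on 6 kPa and 13.6 and 14.2 on 60 kPa, so that 1 kPa was the gel that stood apart. IMMP2L had 5.46 and 5.50, 6.31 and 7.52, 3.42 and 3.42 and 5.23 and 5.36 FPKM, and was lowest on 6 kPa. B9D1 had 5.73 and 7.12, 3.50 and 2.80, 7.37 and 7.36 and 3.28 and 4.50 FPKM. PCNA had 89.3 and 91.6, 82.7 and 79.5, 117 and 124 and 146 and 129 FPKM, and CCNB1 had 103 and 109, 90.8 and 94.1, 125 and 141 and 189 and 175 FPKM. In these uncorrected values both were lowest on 1 kPa and highest on 60 kPa. DEK, a chromatin protein, had 44.7 and 70.9 FPKM on 6 kPa, against 44.3 and 44.7 FPKM on 1 kPa, so the shallower 6 kPa library alone lay above 1 kPa.

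**Figure D5:**
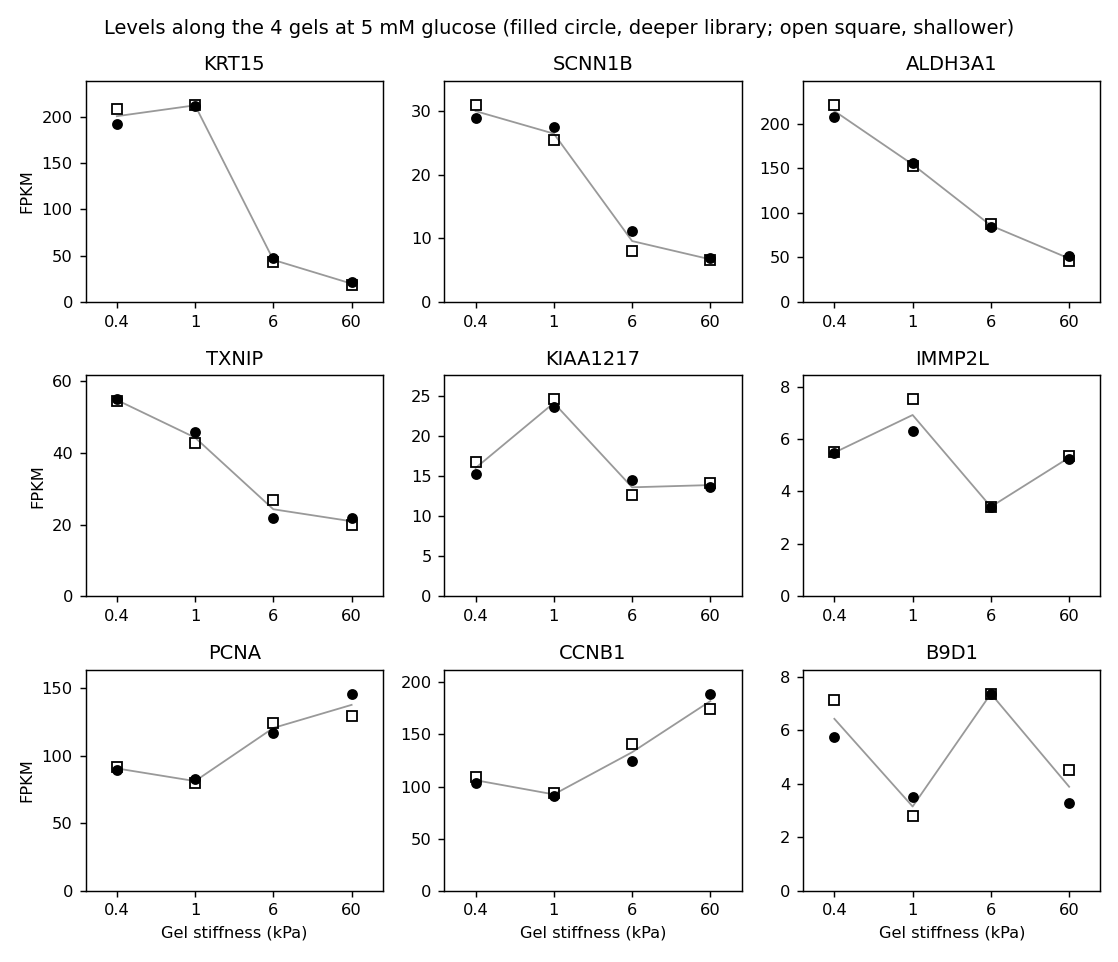
FPKM (vertical axis, from 0) of 9 genes on gels of 0.4, 1, 6 and 60 kPa at 5 mM glucose, with a filled circle for the deeper and an open square for the shallower library, joined through the group means. KRT15 drops between 1 and 6 kPa, while IMMP2L is lowest and B9D1 highest on 6 kPa.

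Further calls after GC correction, picked after the values were seen, were spread over several roles. C3, a complement protein, had 105 and 93.0 FPKM on 6 kPa, against 142 and 140 FPKM on 1 kPa (-0.49 ± 0.04, adjusted p = 0.00301). NFE2L1, a transcription factor of proteasome genes, had 36.4 and 31.5 FPKM on 6 kPa and 52.2 and 53.6 FPKM on 1 kPa (-0.62 ± 0.06, adjusted p = 0.00301). EHF, an epithelial transcription factor of the ETS family, had 1.95 and 2.50 FPKM on 6 kPa and 5.06 and 5.08 FPKM on 1 kPa. SELENOP, the secreted carrier of selenium, had 2.52 and 3.75 FPKM on 6 kPa and 6.90 and 6.69 FPKM on 1 kPa, and LRP1, an endocytic receptor, 5.24 and 3.74 FPKM on 6 kPa and 8.91 and 9.43 FPKM on 1 kPa. In each of these genes both 6 kPa libraries lay below both 1 kPa libraries in the deposited values.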

How the data were processed

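RNA was extracted with TRIzol and made into libraries by KAPA mRNA HyperPrep, per the labels. STAR, HOMER and the build hg19 are named, without versions, in the submitters' processing notes. The deposited FPKM values come from HOMER's analyzeRepeats.pl run by the authors in its rpkm mode, per the file headers, on exon reads of 1 transcript per gene with no strand option. The table holds 10 columns, which carry a group but no replicate number. Transcript GC content came from GENCODE v29, and 98.7% of the genes tested had a value.

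Genes averaging 0.5 FPKM or more entered limma 3.58.1 under R 4.3.3 (eBayes, trend) on log2 of FPKM plus a pseudocount of 1, with all 10 libraries in 5 groups (5 residual degrees of freedom) so that all inform the spread. A fold on this scale understates changes of low genes. The correction subtracted a loess curve of span 0.3 against GC content from each library. Whole reads were recovered from FPKM, length and library total: at least 99.99% of the values tested lay within 0.12 of a whole number. Exon reads were 1.97 to 18.4 M per library, and precision is lowest in the shallower 6 kPa library. Where the labels do not say whether pooled cultures were grown separately, p-values measure only the spread between these libraries. The fits were tested on simulated data.

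Named genes were drawn from the 12 largest rises and falls by the gap between groups (mean of at least 5 FPKM, same sign after GC correction). They were also drawn from up to 4 members of each list by that gap, from genes listed by name, and from genes said to be picked after their values were seen. Many list members picked by the gap are not named, and in some lists only the called members are. Called genes are named too. The groups, members and the 46 lists were chosen with earlier results of these data known. Alternatives were other pseudocounts, filters, scaling, correction and leaving out each library; calls of list members without each library were added after seeing the data. Results of a few genes and of 1 list are not reported here.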

Additional observations from a re-analysis of the deposited data

How the results depend on the processing

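The count of 25 genes called became 24 and 33 with a pseudocount of 0.1 and 5 FPKM, 31 at 5 FPKM or more on average, 9 with no filter, 54 with median centring (12 up and 42 down), 196 with GC correction, 98 with limma-voom on recovered reads (14 up and 84 down) and 0 with only the 4 libraries, where 683 genes had an unadjusted p under 0.05. The split of calls was 22 down and 3 up as deposited. Leaving out each library in turn gave 8 to 1725 calls, and 15 to 639 after GC correction. The 196 calls after GC correction became 204 with a pseudocount of 0.1 FPKM, 192 with a loess span of 0.75 and 178 with a further correction for length. The 43 genes with a 1.5-fold gap became 151 at 0.5 FPKM or more on average and 216 with the smaller gap tried. The cause of these shifts was not tested.

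The 25 called genes kept their direction in the settings run. Of the genes listed by name, 6 that were not called changed sign in some settings. CYR61 turned to -0.050 with voom, -0.11 without the shallower 6 kPa library and -0.12 without it after GC correction. CTGF turned to -0.026 with voom, and to -0.06 without the shallower 1 kPa library before and after GC correction (-0.056 and -0.057). FN1 turned to -0.00037 with median centring, -0.039 with voom, -0.00044 with GC correction at a pseudocount of 0.1 FPKM and -0.0052 without the deeper 1 kPa library after GC correction. ITGB4 turned to 0.089 without the shallower 6 kPa library. ACTA2 turned to -0.057 with voom, -0.020 with GC and length correction, and without the shallower 6 kPa library to -0.11 before and -0.13 after GC correction. HSF1 turned to 0.14 without the shallower 6 kPa library, and after GC correction to 0.041, with a pseudocount of 0.1 FPKM to 0.056, with a span of 0.75 to 0.040, with length to 0.028, without the shallower 1 kPa library to 0.083 and without the deeper 6 kPa library to 0.11. Leaving out each library gave -0.11 to 0.22 for CYR61, -0.056 to 0.18 for CTGF, 0.017 to 0.044 for FN1, -0.47 to 0.089 for ITGB4, -0.11 to 0.19 for ACTA2 and -0.24 to 0.14 for HSF1. No paired analysis was possible because the columns carry no replicate numbers. Depth limits low genes most in the shallower 6 kPa library, with 2.98 M mapped reads.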
